A study of Mus musculus with 4 samples.

Results

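The cells described here are stromal cells of the mouse fracture callus that carried transcripts of *Cxcl14*, *Abca8a* and *Cygb*. They were chosen from single-cell RNA-seq counts by a fixed rule: a raw total of at least 5 unique molecular identifiers (UMIs, 1 per captured transcript) over these 3 genes and at least 1 of *Pdgfra*, with no *Ptprc* (the leukocyte gene CD45) and at most 1 UMI each of *Tnmd*, *Kif26b*, *Mki67*, *Pecam1* and of *Pi16* plus *Dpp4* together. The limits removed cells with 2 or more UMIs of a marker of tendon, skeletal progenitor, dividing, endothelial or fibroblast precursor cells, and cells with 0 or 1 were kept, so that between 15.2% and 23.5% of the cells chosen in each library still held a *Pi16* UMI. The rule found 1080 cells (members below) among 25479 that passed quality filters, which was 4.24% of them and 13.7% of the 7894 cells with *Pdgfra* and without *Ptprc*, called stromal cells here. The remaining 6814 stromal cells were the cells the members were compared with. Because the members were picked on their own counts, every difference between them and other stromal cells is a description without a test.

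Fibroblasts are the matrix-producing cells of connective tissue, and those of the periosteum, muscle fascia and fracture callus share the receptor PDGFRα while differing in the signals and matrix proteins they make. *Cxcl14* encodes a secreted chemokine, *Abca8a* a lipid transporter and *Cygb* the oxygen-binding globin cytoglobin, and all 3 are expressed by fibroblasts of several tissues. During repair, fibroblastic and skeletal progenitor cells occupy the callus together, and arthritis adds circulating inflammatory signals.

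The study asked how arthritis changes the cells of the fracture callus. Tibiae of wild-type C57BL/6J mice, male and 3 months old, were fractured, and the mice received vehicle (control) or K/BxN serum, whose autoantibodies produce an inflammatory arthritis that serves as a model of rheumatoid arthritis (RA). Callus was collected at 4 or 7 days post fracture (dpf), scraped along the periosteal surface, dissociated with collagenase P and loaded on a droplet system that reads transcript 3′ ends. The groups were therefore control at 4 dpf (control_4d), control at 7 dpf (control_7d), arthritic at 4 dpf (RA_4d) and arthritic at 7 dpf (RA_7d). Each group was 1 library made from a pool of calluses (4 by the design text, 3 by the methods), and no library was separated by mouse. Condition and library could not be told apart, so no p-value is given, and intervals cover counting error only. The arthritis is a passive serum transfer into mice of 1 strain and sex.

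The libraries differed in size, RA_4d being the smallest. The tables held 7630 barcodes and 168210361 UMIs for control_4d, 10206 and 177131833 for control_7d, 5896 and 130168130 for RA_4d, and 10306 and 182259646 for RA_7d. Cells with 4000 to 50000 UMIs, 2000 to 7000 genes and at most 8% mitochondrial UMIs were kept. Members had a median of 23800, 20305, 24915 and 19707 UMIs in control_4d, control_7d, RA_4d and RA_7d, and each of these medians was below that of the other stromal cells (32692, 25255, 32651 and 25621). Summed over members, the libraries gave 2651993, 6050253, 2541681 and 11837484 UMIs, so the 4 dpf values rest on fewer transcripts. Among the kept cells 66 barcodes were shared by a pair of libraries, and 0 of these were members.

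Members were counted in every library. Control_4d held 105 of them, control_7d 293, RA_4d 99 and RA_7d 583. They made up 12.2% of the control_4d stromal cells (exact Clopper-Pearson 95% interval 10.1 to 14.6), 11.02% of those of control_7d (9.85 to 12.3), 14.5% for RA_4d (11.9 to 17.3) and 15.8% for RA_7d (14.6 to 17.02). The share among stromal cells was 1.43 times as high in RA as in control at 7 dpf (conditional 95% interval 1.24 to 1.66) and 1.18 times at 4 dpf (0.890 to 1.57), where the interval included no difference. Of all kept cells, members were 1.92%, 3.82%, 2.41% and 7.09% in the same order. That share was 1.99 times as high at 7 as at 4 dpf in control (1.59 to 2.51) and 2.94 times in RA (2.37 to 3.68), whereas among stromal cells the ratio over time was 0.903 in control (0.720 to 1.14) and 1.09 in RA (0.882 to 1.37), and both intervals included no difference. The ratio in control was 0.604 (0.466 to 0.788) with a minimum of 10 UMIs over the 3 genes and 1.1497 (0.924 to 1.44) under a looser cell filter, where that in RA was 1.51 (1.22 to 1.87), so these ratios depend on the settings. A like number of cells was loaded per library, so these are shares of the cells captured and not numbers of cells in the callus. A summed count of a gene does not by itself separate fewer cells carrying it from less of it per cell.

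**Figure D1:**
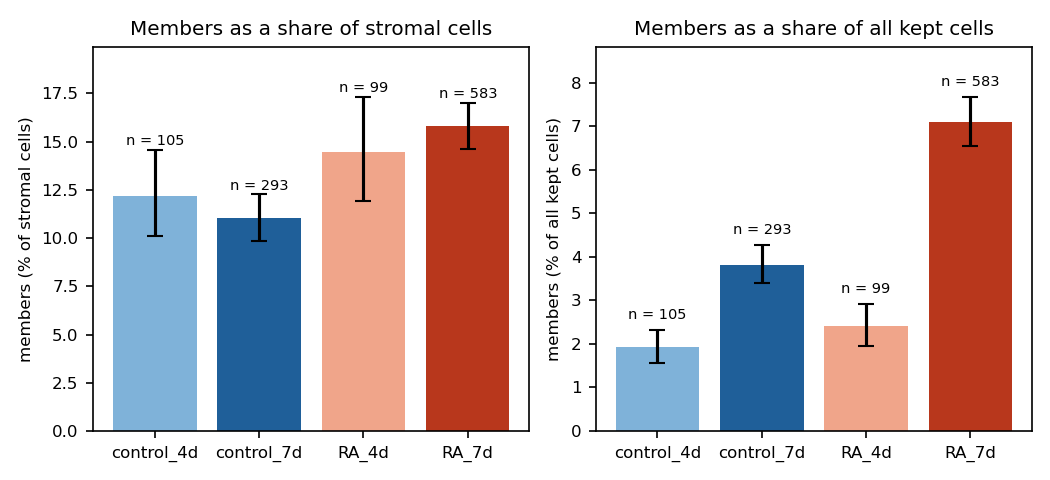
Members as a percentage of stromal cells (left) and of all kept cells (right) in the 4 libraries; bars start at 0, error bars are exact 95% binomial intervals and n is the number of members. RA_7d was highest on both scales, at 15.8% and 7.09%. Among stromal cells, however, RA_4d was above it with a minimum of 10 UMIs (12.3% and 11.5%). The same held among cells of 10000 to 30000 UMIs (22.6% and 19.5%). The intervals of the 4 dpf libraries overlap on both scales.

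The individual limits of the rule weighed differently in the libraries. Cells with 5 or more UMIs of the 3 genes numbered 435, 934, 393 and 2166 (control_4d, control_7d, RA_4d, RA_7d, the order kept below wherever 4 values follow each other), and the members were 24.1%, 31.4%, 25.2% and 26.9% of them. The limit on *Pi16* plus *Dpp4*, markers of fibroblast precursors, was exceeded by 47.1%, 27.4%, 26.7% and 47.7% of those cells. The limit on *Kif26b*, a marker of skeletal progenitors, was exceeded by 17.9%, 33.9%, 44.8% and 26.1%. Many cells passing the first condition thus carried precursor or progenitor transcripts too. Just inside the threshold, with a total of exactly 5, lay 4, 31, 2 and 33 members, and just outside it, with a total of 4, lay 4, 31, 3 and 34 cells that met every other limit. The median total was 29, 11, 28 and 17 UMIs, so the control_7d members lay nearest to the threshold.

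The genes of the rule are given as a description of what was selected. Values are summed UMIs scaled to the same total in each library (CPM) with exact Poisson 95% intervals where printed. *Cxcl14* stood at 1180 CPM (1139 to 1222), 333 (319 to 348), 855 (819 to 892) and 423 (412 to 435). Among the cells so chosen *Cxcl14* was lower at 7 than at 4 dpf in both conditions, which describes the selection. *Abca8a* was level, at 222, 215, 210.1 and 216 CPM, while *Cygb* was at 462, 257, 533 and 434. *Cxcl14* is at chr13:56288643-56296551 (minus strand) and *Abca8a* at chr11:110025634-110095978 (minus strand) in GRCm38 (mm10), and reads of *Abca8a* may be shared with its near copy *Abca8b*.

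The label of the cells names 3 further markers, *Myoc*, *Gdf10* and *C3*, that the rule did not use. *Myoc*, which encodes the secreted protein myocilin, stood at 541, 40.5, 292 and 148 CPM. It was seen in 62.9%, 9.56%, 49.5% and 28.8% of members, against at most 1.02% of leukocytes (2 or more UMIs of *Ptprc* and no *Pdgfra*) in any library. *Myoc* therefore marked fewer than 1 in 10 of the control_7d members. *Gdf10*, a secreted factor of the TGF-β family at chr14:33923587-33937983 (plus strand), was at 127, 50.2, 162 and 237 CPM and was seen in 63.8%, 28.7%, 70.7% and 61.9% of members. The complement gene *C3*, at chr17:57203970-57228136 (minus strand), was at 1195, 291, 1327 and 1242 CPM and was seen in 90.5%, 41.3%, 92.9% and 83.5% of members, against 30.0%, 27.7%, 38.3% and 38.7% of leukocytes. Leukocytes had lower median depth (14552, 11287.5, 15295 and 11379.5 UMIs), so the shares were repeated with every cell thinned to 8000 UMIs, which left out 1, 4, 1 and 22 shallower members. *C3* was then seen in 83.7%, 34.3%, 86.7% and 76.5% of members, in 52.0%, 25.4%, 54.8% and 56.5% of other stromal cells and in 21.2%, 22.3%, 29.1% and 32.3% of leukocytes. All 3 markers were higher in members than in other stromal cells in each library, but in control_7d they described a minority of the members. The fibroblast genes *Lum*, a collagen-binding proteoglycan (1645, 1546, 1684 and 2000 CPM), and *Col14a1*, a fibril-associated collagen (786, 730, 737 and 909 CPM), were abundant throughout.

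**Figure D2:**
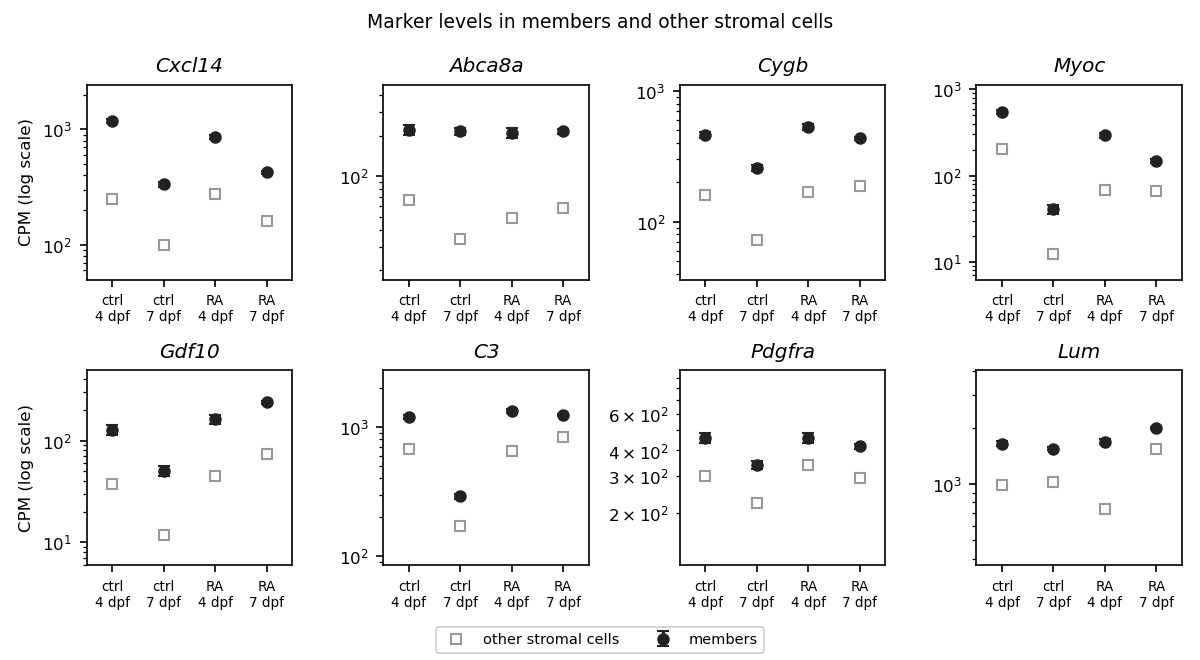
Summed CPM (log axis) in the 4 libraries of genes that the rule required, the label markers and 2 fibroblast genes. Members are filled circles (error bars exact 95% Poisson intervals) and other stromal cells open squares. Members lie above other stromal cells in every panel, which describes the selection for genes that the rule required. *Myoc*, *Gdf10* and *C3* were lowest in control_7d, at 40.5, 50.2 and 291 CPM.

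Both *Cxcl14* and *Abca8a* were in the sum that chose the members, so their levels across libraries describe the selection. The stretches of DNA before their start sites are shown because these genes name the cells. They were read from the 250 bases before the RefSeq start site in GRCm38.p6, less any base that lies within the GENCODE gene, 5′ to 3′ on the strand of the gene. They span chr13:56296552-56296801 (minus strand, 250 bases) for *Cxcl14* and chr11:110095979-110096187 (minus strand, 209 bases) for *Abca8a*.
Cxcl14: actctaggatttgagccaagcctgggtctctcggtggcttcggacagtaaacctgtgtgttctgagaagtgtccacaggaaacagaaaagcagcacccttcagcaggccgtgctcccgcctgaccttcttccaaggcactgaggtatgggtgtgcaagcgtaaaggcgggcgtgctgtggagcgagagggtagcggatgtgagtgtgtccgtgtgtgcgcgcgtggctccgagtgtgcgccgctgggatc
Abca8a: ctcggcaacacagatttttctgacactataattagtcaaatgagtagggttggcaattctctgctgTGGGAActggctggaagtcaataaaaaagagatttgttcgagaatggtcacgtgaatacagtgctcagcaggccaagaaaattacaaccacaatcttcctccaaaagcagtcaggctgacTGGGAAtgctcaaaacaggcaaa
Capitals mark the letters TGGGAA, the core bound by RBPJ, the DNA-binding partner of Notch receptors, searched as TGGGAA or TTCCCA to cover both strands. *Abca8a* held these letters at 2 places and *Cxcl14* at none. Such matches were common, in 21.6% of all 32851 promoters when each was taken at 250 bases, and they are a description of letters, not of bound sites.

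Members combined the 3 genes in different ways. All 3 were present in 67.6%, 33.8%, 66.7% and 52.5% of members. *Abca8a* and *Cygb* without *Cxcl14* were found in 13.3%, 36.9%, 6.06% and 17.5%, and *Cxcl14* and *Cygb* without *Abca8a* in 13.3%, 15.02%, 21.2% and 19.04%. In control_7d the *Cxcl14*-free combination was about as common as all 3 together, with overlapping intervals (31.3% to 42.7% and 28.4% to 39.5%). *Cxcl14* transcripts were concentrated, as the 10% of members richest in them held 58.2%, 66.7%, 41.6% and 49.9% of them.

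Across single members, levels were compared by Spearman's rho after thinning each cell to 8000 UMIs, a description over the 104, 289, 98 and 561 members deep enough, which share a library and its depth. *Cxcl14* went with *Apod*, a lipid-binding lipocalin (rho 0.37, 0.40, 0.49 and 0.39), and with *C3* (0.43, 0.34, 0.46 and 0.31). It was lower where *Postn*, the matrix protein periostin of progenitors and healing tissue, was high (rho -0.31, -0.44, -0.33 and -0.24). *Abca8a* went with a different pair, *Itih5*, which binds hyaluronan (0.54, 0.47, 0.50 and 0.48), and the laminin chain *Lama2* (0.51, 0.40, 0.67 and 0.57). Between *Cxcl14* and *Abca8a* themselves rho was 0.19, -0.23, 0.19 and 0.25, and a threshold on their sum can by itself push it below 0.

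Members varied among themselves. Of 4728 genes ranked by their variance over that of genes of like mean, taking the lowest ratio of the 4 libraries, the first 12 were *Malat1*, *Gm42418*, *Col3a1*, *Gsn*, *Spp1*, *Postn*, *Prg4*, *Csmd1*, *Col1a2*, *Eln*, *Col1a1* and *Sfrp2*, of which 8 stayed among the first 12 with cells thinned to 4000 in place of 8000 UMIs. *Malat1* is a nuclear RNA, and *Gm42418* overlaps ribosomal RNA and is uncertain. The actin-severing protein gelsolin, *Gsn*, had a median of 21, 4, 21.5 and 11 UMIs per thinned member and a 90th percentile of 91, 20, 101 and 68. *Postn* had the opposite order of medians, with 11, 35, 9 and 24.

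*Gsn* and *Postn* marked opposite ends of this variation. *Gsn* went with *Dcn*, the proteoglycan decorin (rho 0.83, 0.57, 0.80 and 0.64), with *Myoc* (0.74, 0.41, 0.74 and 0.50) and with the basement membrane collagen *Col4a1* (0.64, 0.44, 0.59 and 0.56). It ran against *Cthrc1*, a secreted protein of activated fibroblasts (-0.71, -0.38, -0.63 and -0.59). *Postn* instead went with *Cthrc1* (0.72, 0.41, 0.65 and 0.52) and *Col1a1*, the main chain of type I collagen (0.62, 0.48, 0.60 and 0.41), and ran against *Col4a1* (-0.56, -0.35, -0.48 and -0.42). *Sfrp2*, a secreted Wnt modulator, followed neither gene most closely, and went with *Emb*, an adhesion protein (0.46, 0.34, 0.50 and 0.44), and against the matrix protein *Sparcl1* (-0.41, -0.30, -0.63 and -0.51). Members thus formed a range from *Gsn*-rich to *Postn*-rich cells in all 4 libraries, with the control_7d members the furthest toward *Postn*.

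Against other stromal cells, 42 of 15905 genes were at least 2-fold higher in members in all 4 libraries (0.264%) and 149 at least 2-fold lower (0.937%), together 1.2%. With a pseudocount of 10 CPM the split was 18 higher and 18 lower. The median over all genes was -0.09, -0.02, -0.11 and -0.02 on the log2 scale. All log2 ratios here were taken between CPM values with a pseudocount of 1 CPM, which understates the differences of low genes.

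Among collagens, *Col4a1* and *Col4a2*, the paired chains of type IV collagen, were both higher. *Col4a1* stood at 641, 309, 745 and 671 CPM in members against 264, 125, 322 and 263 in other stromal cells, a log2 ratio of 1.28, 1.30, 1.21 and 1.35. *Col4a2* had ratios of 1.16, 1.21, 1.23 and 1.21, and *Col15a1*, a collagen of the basement membrane zone, 1.23, 1.08, 1.03 and 1.25. These 3 of 18 collagen genes were the ones past 2-fold, while the list's median log2 ratio was 0.07, 0.17, -0.05 and -0.05. *Hmcn2*, a giant matrix protein of the hemicentin family, stood at 143, 86.6, 86.2 and 132 CPM, with log2 ratios of 1.59, 2.02, 1.79 and 1.82. *Sparcl1* (1.48, 1.77, 1.55 and 1.48), *Fbln7* (1.19, 1.92, 1.86 and 1.06) and *Ltbp4*, which tethers latent TGF-β to elastic fibres (1.23, 1.43, 1.77 and 1.04), were higher as well. *Gsn* reached 3532, 949, 3617 and 2503 CPM in members against 1317, 376, 1068 and 1038, and *Itih5* had ratios of 1.25, 1.98, 1.37 and 1.09. Among cells of 10000 to 30000 UMIs, the ratio nearest 0 over the libraries was short of 2-fold for *Col4a2* (0.91), *Fbln7* (0.90), *Col15a1* (0.85), *Gsn* (0.83), *Itih5* (0.80) and *Ltbp4* (0.73), and only just for *Col4a1*.

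Several genes of lipid, retinoid and redox handling were higher. Of 23 genes on that list, 7 were past 2-fold in every library (*Abca8a*, *Abca8b*, *Apod*, *Lpl*, *Adh1*, *Cygb* and *Fmo2*, of which the first and *Cygb* chose the cells) and 2 were lower (*Fabp4* and *Fabp5*). The median log2 ratio of the list was 0.76, 0.81, 0.87 and 0.77. *Lpl*, the lipoprotein lipase that frees fatty acids from circulating triglycerides, stood at 306, 300, 410 and 601 CPM in members against 97.1, 77.5, 161 and 194. *Apod* stood at 807, 336, 1500 and 1336 CPM against 393, 136, 342 and 378, but among cells of 10000 to 30000 UMIs its ratio nearest 0 was 0.15. The fatty-acid binding protein *Fabp4*, typical of capillary endothelium and adipocytes, was among the largest differences in the other direction, at 10.9, 7.1, 17.3 and 14.4 CPM against 89.4, 94.97, 189 and 123.

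Other higher genes encode secreted signals and surface proteins. *Lsamp*, a GPI-anchored adhesion protein best known in neurons, ranked first among abundant genes outside the rule by its smallest ratio over the libraries, at 144, 75.0, 129 and 152 CPM and a log2 ratio of 2.54, 1.91, 2.48 and 2.06. *Gdf10* followed with 1.74, 2.00, 1.82 and 1.67. *Dpep1*, a membrane dipeptidase, had 1.58, 1.94, 1.55 and 1.13 (0.81 nearest 0 among cells of 10000 to 30000 UMIs), and *Bmper*, a secreted BMP-binding protein, 1.14, 1.27, 0.97 and 1.23, just short of 2-fold in RA_4d. Of 17 chemokine-list genes 2 were higher, *Cxcl14* itself and *Ccl11*, the eotaxin that attracts eosinophils, at 104, 47.8, 96.8 and 133 CPM against 37.9, 10.8, 35.5 and 52.7. Complement genes leaned the same way without passing the threshold, with 0 of 16 called and a median log2 ratio of 0.61, 0.72, 0.80 and 0.46.

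Genes lower in members included markers of other cell types, with 6 of 14 cartilage genes, 6 of 12 tendon genes, 4 of 16 skeletal progenitor and osteoblast genes, 8 of 16 cell cycle genes and 8 of 10 endothelial genes. All but the first of these counts include a gene that the rule itself limited, *Tnmd*, *Kif26b*, *Mki67* and *Pecam1* in that order, so the counts describe the selection. Of 16 fibroblast precursor genes 2 were lower, *Pi16* and *Dpp4*, which the rule itself limited, so this count describes the selection too. The list's median log2 ratio was -0.61, 0.03, 0.03 and -0.97. Among abundant ones, the tendon and cartilage proteoglycan *Fmod* had log2 ratios of -2.81, -3.75, -2.50 and -2.80, and *Col11a1*, a cartilage collagen, -2.21, -2.77, -2.26 and -2.19. *Edil3*, a secreted integrin ligand (-2.41, -1.69, -2.86 and -1.72), *Fabp5* (-2.87, -1.96, -2.72 and -1.50), *Pdgfc*, a growth factor of fibroblasts (-1.50, -1.15, -2.22 and -1.75), *Efna5*, an ephrin (-1.83, -1.10, -1.32 and -1.56), *Rras2*, a small GTPase (-1.55, -1.25, -1.20 and -1.52), and the adipokine *C1qtnf3* (-1.09, -2.27, -1.41 and -2.01) were lower too. *Tagln*, a contractile protein, had -1.43, -2.48, -2.04 and -0.95, short of 2-fold in RA_7d. A single cell held 59.3% of its UMIs in control_4d and 33.3% in RA_7d. Without the richest cell the members of those libraries stood at 14.2 and 24.6 CPM, in place of 34.3 and 36.7. Other stromal cells stood at 94.4 and 72.1 CPM there.

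**Figure D3:**
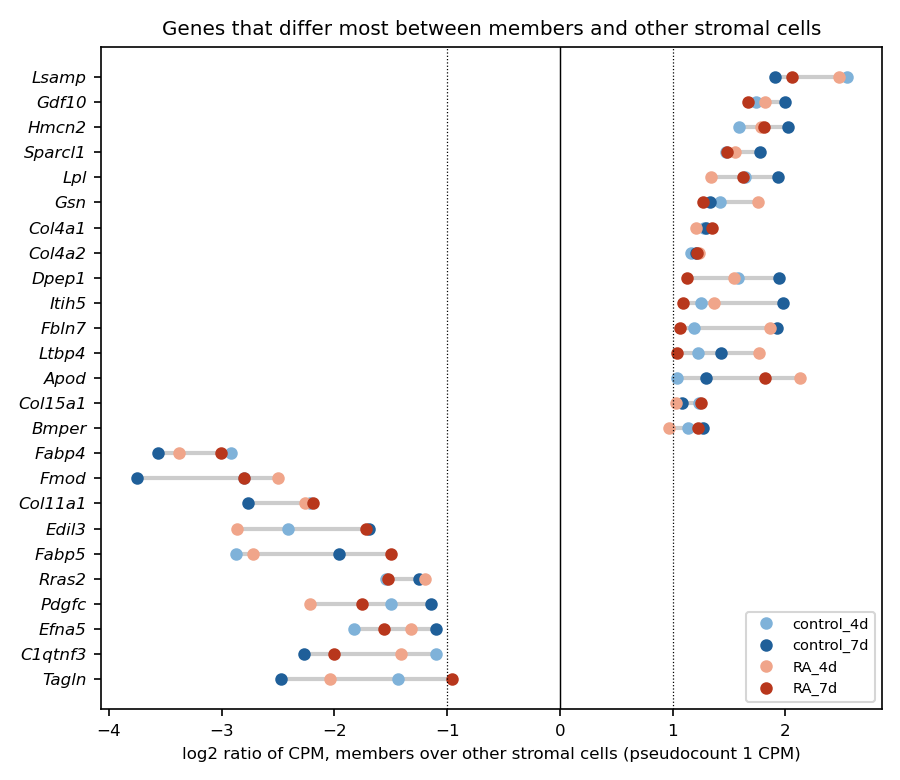
log2 ratio of summed CPM (pseudocount 1 CPM), members over other stromal cells, for the 15 highest and 10 lowest abundant genes; each point is 1 library and the dotted lines mark 2-fold. The 4 libraries fall on the same side of 0 for each gene shown, from 1.91 to 2.54 for *Lsamp* and from -2.92 to -3.57 for *Fabp4*.

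For *Itih5* and *Gsn* the size of the difference depended on which stromal cells stood on the other side. Against the 2602 stromal cells with 2 or more UMIs of *Pi16* plus *Dpp4*, *Itih5* had log2 ratios of 0.42, 0.35, -0.48 and 0.49 and *Gsn* 0.67, 0.36, 0.11 and 0.77. Against the 2507 cells with 2 or more UMIs of *Kif26b*, the ratios were 3.53, 3.54, 3.29 and 2.81 for *Itih5* and 3.43, 1.82, 3.07 and 2.50 for *Gsn*. Both genes thus differed less from precursor-marked cells, short of 2-fold in every library, than from progenitor-marked cells. *Lsamp* kept large ratios against the *Pi16* and *Dpp4* cells as well, at 2.70, 1.78, 1.49 and 2.16. The other genes above are given only against all other stromal cells, so they are not shown to be particular to members among the cells most like them.

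At 7 dpf, RA and control members were compared in 10135 genes. In RA, 157 genes were at least 2-fold higher (1.55%) and 89 at least 2-fold lower (0.878%), together 2.43%, around a median of -0.05 on the log2 scale. Genes past 2-fold included *C3*, *C4b*, *Eln*, *Gdf10* and *Mmp3*, higher in RA_7d, and *Bmp5*, *Tnc*, *Igf2* and *Dlk1*, lower. Values below are CPM, with exact conditional 95% intervals on the ratio at 7 dpf.

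The complement genes carried a large difference. *C4b*, the classical pathway component, stood at 258, 93.4, 400 and 439 CPM, 4.70 times as high in RA as in control at 7 dpf (4.31 to 5.14), and its reads may be shared with near-identical copies. *C3* was 4.27 times as high (4.07 to 4.49). For both genes control_7d was the lowest of the 4 libraries. On the complement list 4 of 10 genes were past 2-fold (*C2*, *C3*, *C4b* and *C7*) and none was lower, with a median log2 ratio of 0.96 in members and 1.43 in other stromal cells. *C2* was at 101, 37.7, 100 and 103 CPM, and summed CPM over the list was 5034, 2046, 5011 and 4740.

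A few matrix and protease genes were higher, while most genes of the matrix lists were not past 2-fold. *Eln*, which encodes tropoelastin (chr5:134702593-134747323, minus strand), stood at 333, 169, 574 and 844 CPM, 5.001 times as high in RA_7d as in control_7d (4.69 to 5.34). The 10% of thinned members richest in *Eln* held 67.0% of its UMIs in control_7d and 74.2% in RA_7d, where the medians were 0 and 1. *Mmp3*, the protease stromelysin-1, stood at 310, 133, 378 and 543 CPM (4.09 times, 3.803 to 4.41) and *Cpz*, a secreted carboxypeptidase, at 26.8, 13.9, 36.2 and 64.5. RA_7d was the highest of the 4 libraries for each. *Mmp13*, the collagenase of cartilage and bone remodelling, had a log2 ratio of 2.03 and made up, with *Mmp3* and *Cpz*, the 3 of 19 protease-list genes past 2-fold (list median 0.42). Of 18 collagens the same 3 that set members apart, *Col4a1* (1.12), *Col4a2* (1.03) and *Col15a1* (1.35), were past 2-fold in RA, with the list median at -0.11. Of 21 elastic fibre genes 1 was higher and 0 lower, around a median of -0.04, and of 11 small leucine-rich proteoglycans 1 was higher and 0 lower, around 0.37.

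Secreted signals differed in both directions. *Gdf10* was 4.73 times as high in RA_7d as in control_7d (4.20 to 5.34). Of 22 BMP, GDF and TGF-β genes 4 were higher, among them *Gdf10*, *Bmp4* (50.5, 6.94, 31.9 and 28.0 CPM) and the activin inhibitor *Fst* (229, 82.8, 212 and 223 CPM), and 1 was lower, *Bmp5*. *Sfrp2* stood at 654, 261, 1920 and 729 CPM, 2.79 times as high at 7 dpf (2.64 to 2.94). Of 15 chemokines 3 were higher, *Ccl19* (30.9, 7.27, 57.8 and 41.6 CPM), *Ccl8* (89.4, 38.8, 64.9 and 134 CPM) and *Ccl11* (log2 1.46), 1 was lower, *Cxcl2*, and the list median was 0.32. *Cxcl12*, the chemokine that retains blood progenitors and lymphocytes, stood at 928, 392, 1516 and 783 CPM and was just short of 2-fold, with a log2 ratio of 1.00 after rounding. Of 20 neurotrophic and angiogenic factors, *Ntf3* (41.5, 8.10, 25.2 and 34.6 CPM), *Vegfd* (1.41), *Fgf10* (2.64) and *Pdgfd* (1.31) were higher and *Bdnf* (-1.06) and *Pdgfc* (-1.12) lower.

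Other high genes had varied roles. *Apod* was 3.98 times as high at 7 dpf (3.796 to 4.17). Its transcripts were concentrated, as the 10% of thinned members richest in them held 51.1% in control_7d and 73.5% in RA_7d, where the medians were 1 and 3 UMIs. Of the 22 lipid, retinoid and redox genes *Aldh1a1*, a retinaldehyde dehydrogenase (35.1, 8.26, 50.4 and 34.8 CPM), and the monooxygenase *Fmo2* (log2 1.84) were also higher, *Fabp5* was lower (-1.77) and the list median was 0.65. *Gpnmb*, a glycoprotein often seen in phagocytes and remodelling tissue, stood at 57.7, 28.8, 104 and 107 CPM. *Opcml*, an adhesion protein of the family of *Lsamp*, stood at 10.9, 18.5, 45.6 and 65.0 CPM, and *Rorb*, a nuclear receptor, at 7.16, 16.0, 33.0 and 50.6. Both were higher in RA at each time, although 1 cell held 36.8%, 42.3% and 36.9% of the *Rorb* UMIs in control_4d, control_7d and RA_4d. *Csmd1*, a membrane protein with complement-control domains, stood at 227, 46.8, 388 and 128 CPM.

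Of the abundant genes lower in RA at both times, *Bmp5* had the largest difference at 7 dpf. This bone morphogenetic protein gene (chr9:75775364-75900310, plus strand) stood at 39.97, 99.004, 10.2 and 23.4 CPM, so RA was 0.236 times control at 7 dpf (0.204 to 0.273), and its log2 ratio at 4 dpf was -1.87. *Tnc*, the matrix protein tenascin-C of growing and healing tissue, stood at 137, 343, 51.9 and 116 CPM, 0.337 times control at 7 dpf (0.315 to 0.361). Both were lower in RA at each time. *Tppp3*, a tubulin-binding protein of tendon sheath cells, stood at 115, 268, 42.1 and 119 CPM and was lower at both times too, while in other stromal cells its ratio at 7 dpf was -0.04. *Epha3*, an ephrin receptor, stood at 52.8, 255, 33.8 and 96.2 CPM, *Aspn*, a proteoglycan of periosteum and tendon, at 686, 1303, 675 and 676, *Pamr1*, a secreted protease-like protein, at 50.9, 124, 39.3 and 63.9, and *C1qtnf3* at 98.4, 148, 55.9 and 77.4. *Aspn*, *Pamr1* and *C1qtnf3* were short of 2-fold. In each of these genes control_7d was the highest library. Of 15 cholesterol synthesis genes 4 were lower (*Idi1* -1.32, *Sqle* -1.31, *Fdps* -1.11 and *Msmo1* -1.02), with a median of -0.58 in members and -0.59 in other stromal cells.

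A few low values rested on a handful of cells. *Lyz2*, the lysozyme of macrophages, stood at 37.7, 89.3, 24.4 and 25.7 CPM (log2 ratio -1.76 at 7 dpf), and all 4 of the macrophage-list genes compared were lower. The 11 macrophage markers, *Lyz2* the most abundant, summed to 84.1, 178, 52.3 and 57.4 CPM in members. Of these *Fcgr1* was at 0 UMIs in control_4d and no other marker was at 0 in any library, while the leukocyte gene *Ptprc* was at 0 by the rule. In control_7d, 14 members held 10 or more UMIs of another cell type's markers, and 1 of them held 77.4% of the 1392 Schwann cell marker UMIs. Without such members (3, 14, 0 and 9 were left out) the macrophage sum was 81.6, 66.3, 52.3 and 52.4 CPM, *Lyz2* had a log2 ratio of -0.46, and 162 genes were higher and 65 lower in RA_7d. The 8 neutrophil markers, *S100a8* the most abundant, summed to 5.66, 27.3, 61.0 and 10.6 CPM and were seen in 13, 75, 83 and 99 members, with *Ly6g* and *Cxcr2* at 0 in every library. The 2 of them compared at 7 dpf, *S100a8* and *S100a9*, were lower in RA (median -1.27), and the part of these transcripts in the other values was not tested. *Saa3*, an acute-phase protein, was seen in 11.4%, 3.07%, 16.2% and 5.32% of members and 1 cell held 65.1% of its UMIs in control_7d. Without the richest cell of each library its log2 ratio at 7 dpf was -0.10 in place of -1.25, and in other stromal cells it was 2.14.

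**Figure D4:**
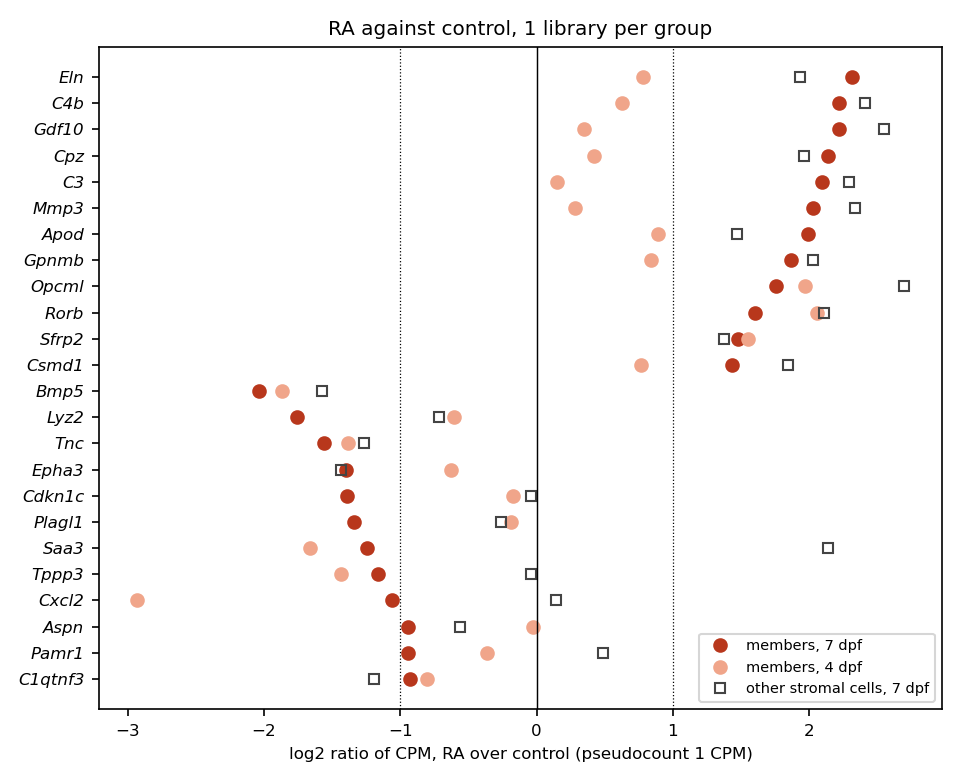
log2 ratio of summed CPM (pseudocount 1 CPM), RA over control with 1 library per group, in members at 7 dpf and 4 dpf (filled circles) and in other stromal cells at 7 dpf (open squares); dotted lines mark 2-fold. *C3* lies at 2.09 at 7 dpf and 0.15 at 4 dpf, whereas *Bmp5*, *Tnc*, *Sfrp2*, *Opcml* and *Rorb* lie past 2-fold at both times, and *Saa3* and *Cxcl2* lie on opposite sides of 0 in members and other stromal cells at 7 dpf.

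Many of these genes differed in the same direction in the other stromal cells of the same libraries. At 7 dpf their log2 ratio was 2.41 for *C4b*, 2.29 for *C3*, 2.55 for *Gdf10*, 2.33 for *Mmp3*, 1.93 for *Eln* and 1.47 for *Apod*, where members had 2.22, 2.09, 2.22, 2.03, 2.32 and 1.99. The 2 values diverged for *Cdkn1c*, a cell cycle inhibitor, at -1.39 in members and -0.04 in other stromal cells, and for *Plagl1*, a zinc finger factor, at -1.34 and -0.26. The fibroblast precursor list had a median of 0.11 in members, from which *Pi16* and *Dpp4* cells were removed, and 1.29 in other stromal cells. None of these differences between cell sets was tested.

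At 4 dpf fewer genes were past the threshold, on fewer transcripts. Of 6293 genes, 34 were at least 2-fold higher in RA (0.54%) and 33 at least 2-fold lower (0.524%), together 1.06%. *C3*, *C4b*, *Gdf10*, *Cpz*, *Mmp3* and *Eln*, all past 2-fold at 7 dpf, had log2 ratios of 0.15, 0.63, 0.35, 0.42, 0.28 and 0.78 at 4 dpf, none past 2-fold. A single control_4d cell held 44.3% of the *Eln* UMIs there, and without the richest cell of each library the ratio of *Eln* at 4 dpf was 1.40. *Sfrp2* had 1.55, *Opcml* 1.97 and *Rorb* 2.06. Of the 6289 genes compared at both times, 89 were higher at 7 dpf and 33 at 4 dpf with 13 in common (14.6% and 39.4% of the lists), and 18 and 32 were lower with 6 in common (33.3% and 18.8%), which were *Bmp5*, *Tnc*, *Tppp3*, *Cxcl2*, *Saa3* and *Fdps*. Of these, *Saa3* was at -0.10 at 7 dpf without the richest cells and at 0.99 at 4 dpf with a minimum of 10 UMIs over the 3 genes, and among cells of 10000 to 30000 UMIs *Tnc* was at -0.37 at 4 dpf and *Cxcl2* at -0.74 at 7 dpf. The comparisons at the 2 times share no library.

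The low genes at 4 dpf included inflammatory signals. *Timp1*, an inhibitor of metalloproteinases, stood at 717, 387, 185 and 207 CPM, a log2 ratio of -1.95, while in other stromal cells it was -0.19. Few cells carried the control_4d level of *Timp1*, where the 10% of thinned members richest in it held 74.0% of its UMIs and a single one held 135, against a median of 1 in control_4d and 0.5 in RA_4d. *Ccl2*, the main monocyte chemokine, stood at 298, 122, 142 and 153 CPM (-1.07). The 10% of thinned members richest in *Ccl2* held 80.4% of its UMIs in control_4d and 68.0% in RA_4d, with a median of 0 in both. *Cxcl2*, a neutrophil chemokine, stood at 141, 65.3, 17.7 and 30.7 CPM, with log2 ratios of -2.93 (4 dpf) and -1.06 (7 dpf). A single control_4d cell held 42.1% of its UMIs there, and without the richest cell of each library the ratios were -2.52 and -1.10. With *Cxcl9* these were the 3 of 15 chemokines past 2-fold at 4 dpf, around a list median of -0.35. For *Cxcl9*, 1 control_4d cell held 86.0% of the UMIs there, and without the richest cell of each library its ratio was -1.59. Of 18 interferon-response genes 1 was lower, *Irf7* (-1.28), and the median was -0.42. The 3 erythroid genes compared were all far lower in RA_4d (median -5.66), and *Hbb-bs*, a beta-globin gene and the most abundant of the list, stood at 440, 174, 3.54 and 221 CPM. A single control_4d cell held 85.2% of the *Hbb-bs* UMIs there, and the levels without the richest cell of each library were 65.8, 138, 3.16 and 169 CPM. The 7 erythroid genes together stood at 823, 327, 8.66 and 423 CPM. The part of this difference between libraries in the other values was not tested, and reads of the globin genes may be shared with near-identical copies.

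The promoter of *Cxcl2* is shown because it alone, among the promoters matched for the genes most different between RA and control, held the letters bound by NF-κB. The 222 bases printed are chr5:90903649-90903870 on the plus strand of GRCm38.p6, directly before the GENCODE gene (chr5:90903871-90905938).
Cxcl2: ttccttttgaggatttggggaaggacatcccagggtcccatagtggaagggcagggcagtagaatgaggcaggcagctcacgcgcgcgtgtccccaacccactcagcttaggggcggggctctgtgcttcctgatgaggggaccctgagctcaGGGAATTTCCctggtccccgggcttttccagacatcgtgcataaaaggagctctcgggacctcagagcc
Capitals mark the match to the NF-κB motif searched, GGGA and TTTCC with 1 base of any kind between them, read on both strands, which 0.356% of the 32851 promoters held. RefSeq promoters were matched for 9 of the 12 higher and 9 of the 12 lower genes. Among the higher ones RBPJ letters were found for *Opcml* and *Rorb* and the AP-1 letters TGANTCA for *Mmp3* and *Rorb*, and among the lower ones RBPJ letters were found for *Bmp5*, *Lyz2* and *Tnc*. The AP-1 letters were in 6.75% of all promoters. Counted per gene, RBPJ letters were found for 24.1% and AP-1 letters for 7.82% of all 27025 genes with a promoter.

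Notch signalling, through the receptors *Notch1* to *Notch4* and the DNA-binding factor *Rbpj*, is known to hold back skeletal differentiation. *Rbpj* stood at 114, 90.1, 122 and 101 CPM in members and 126, 112, 107 and 115 in other stromal cells. *Notch2*, the most abundant receptor of the members, stood at 69.8, 64.1, 76.3 and 68.8 CPM, *Notch1* at 16.97, 34.4, 28.7 and 28.6 and *Notch3* at 9.43, 14.2, 8.26 and 21.5. The log2 ratios of RA over control were 0.16 for *Rbpj*, 0.10 for *Notch2* and -0.26 for *Notch1* at 7 dpf, and 0.11, 0.13 and 0.73 at 4 dpf. Of 14 Notch pathway genes 0 were past 2-fold at 7 dpf, with a median of -0.06, and *Hes1*, a transcriptional target of Notch and the most abundant gene of the list, stood at 371, 349, 398 and 328 CPM. The NF-κB list had 0 of 18 past 2-fold with a median of 0.08, and the interferon list 0 of 21 with 0.12.

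Members of 7 and 4 dpf were compared within each condition. In control, 197 of 8181 genes were at least 2-fold higher at 7 dpf (2.41%) and 177 lower (2.16%), together 4.57%. The median of all genes was 0.11, and scaling by TMM in place of total UMIs shifted the ratios by -0.11 and gave 142 higher and 228 lower. In RA, 150 of 9510 genes were higher (1.58%) and 70 lower (0.736%), together 2.31%, around a median of 0.08. The RA and control comparisons over time share no library.

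Many complement, chemokine and cytokine genes were lower at 7 dpf in control members, while of 17 NF-κB feedback and target genes 0 were past 2-fold (median -0.37). Of the complement list 6 of 9 were past 2-fold (median -1.40), of chemokines 10 of 15 (-1.18), of cytokines 4 of 6 (-1.21) and of interferon-response genes 8 of 19 (-0.97), and 0 were higher. In RA members 1 of 10 complement genes, 2 of 16 chemokines, 1 of 8 cytokines and 1 of 20 interferon-response genes were lower, 2 chemokines were higher, and the medians were -0.10, -0.13, -0.28 and -0.25. *Serping1*, the inhibitor of the first complement component and the most abundant gene of its list, stood at 1820, 765, 1606 and 1430 CPM, and *Cfb*, factor B of the alternative pathway, at 506, 165, 406 and 329. Control_7d was thus the low library for complement. The median of the complement list in other stromal cells was -1.32 in control and 0.31 in RA.

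Some genes of growth and matrix were higher at 7 dpf in both conditions, but the matrix lists were mostly short of 2-fold. Of 18 collagens 2 were higher and 1 lower in control and 3 were higher in RA, with medians of 0.32 and 0.50. Of 21 elastic fibre genes 2 were higher in control, and in RA 1 was higher and 1 lower (-0.08 and 0.09). Of the small leucine-rich proteoglycans 0 were higher and 2 lower in each condition (-0.49 and -0.16). *Ptn*, the heparin-binding growth factor pleiotrophin, stood at 188, 827, 185 and 758 CPM, and its relative *Mdk* (midkine) at 35.8, 247, 29.1 and 192. Both had nearly equal ratios in control and RA, of 2.13 and 2.03 for *Ptn* and 2.75 and 2.68 for *Mdk*. *Nrep*, a small intracellular protein of wound fibroblasts, stood at 104, 335, 77.1 and 276 CPM. Of the skeletal progenitor and osteoblast list, 4 of 9 genes were higher in control (median 0.92) and 5 of 12 in RA (0.69). *Postn*, its most abundant gene, stood at 2580, 5407, 2311 and 3751 CPM and *Runx2*, the master factor of osteoblasts, at 57.3, 155, 83.0 and 112. Of the myofibroblast list 3 of 12 were higher in control and 0 of 12 in RA.

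The genes lower at 7 dpf in both conditions were led by secreted proteins. *Prg4*, the joint lubricant lubricin, stood at 811, 81.6, 892 and 87.9 CPM, a log2 ratio of -3.30 in control and -3.33 in RA. *Serpina3n*, an acute-phase protease inhibitor, stood at 331, 58.3, 448 and 135 CPM. *Chl1*, a cell adhesion protein (206, 55.0, 199 and 71.3 CPM), *Tmem176a*, a membrane protein (187, 53.7, 231 and 84.9), *Cyp2f2*, a cytochrome (62.6, 6.12, 71.6 and 25.3), *Adh1*, an alcohol and retinol dehydrogenase (51.7, 13.4, 74.8 and 27.2), and *Csmd1* followed. *Cxcl13*, the B cell chemokine, stood at 59.95 CPM in control_4d and 0.331 in control_7d, where it had 2 UMIs, but 1 control_4d cell held 83.6% of its UMIs, and without the richest cells the log2 ratios were -3.22 in control and -2.60 in RA.

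**Figure D5:**
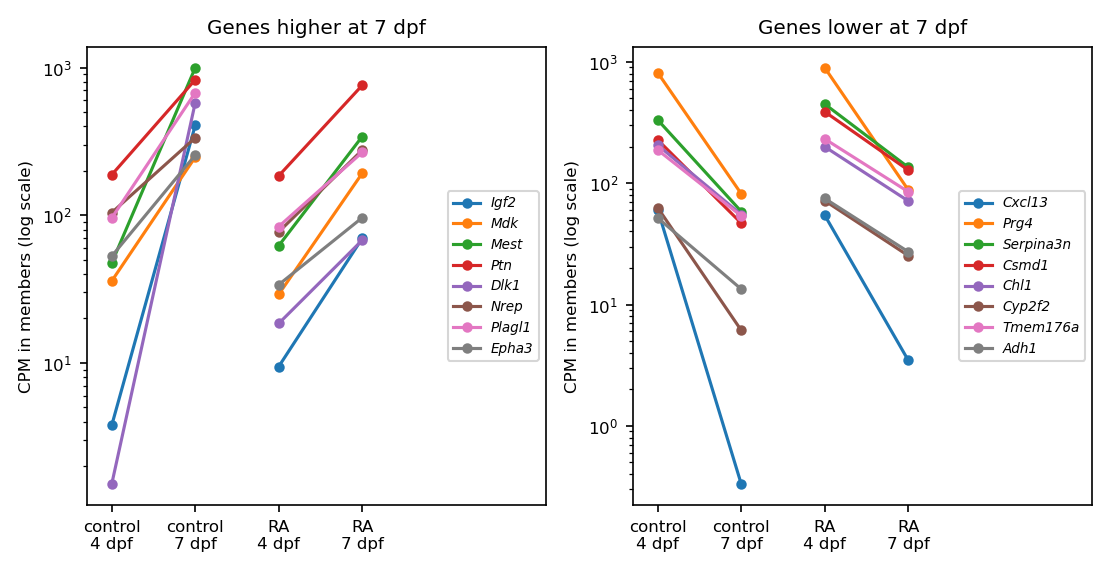
Summed CPM (log axis) in members of the 4 libraries for the 8 genes most raised (left) and most lowered (right) at 7 against 4 dpf in the same direction in both conditions; lines join the libraries of one condition, and there is 1 library per point. *Ptn* and *Mdk* have nearly parallel lines in control and RA, while *Igf2*, *Dlk1* and *Mest* reach higher levels in control_7d (406, 577 and 996 CPM) than in RA_7d (69.7, 67.8 and 341).

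Several of the genes that were higher at 7 dpf are imprinted, that is, expressed from the allele of 1 parent, and act in fetal and regenerative growth. *Igf2*, the fetal insulin-like growth factor (chr7:142650766-142666816, minus strand), had 10, 2456, 24 and 825 UMIs, which was 3.77, 406, 9.44 and 69.7 CPM. *Dlk1*, a secreted inhibitor of adipocyte differentiation (chr12:109452823-109463336, plus strand), had 4, 3492, 47 and 802 UMIs, or 1.51, 577, 18.5 and 67.8 CPM. *Mest*, a hydrolase-like protein, stood at 47.5, 996, 62.2 and 341 CPM, *Plagl1* at 95.8, 676, 83.8 and 267 and *Cdkn1c* at 196, 907, 174 and 346. In all 5 the level was highest in control_7d and next highest in RA_7d. The log2 ratios of RA over control at 7 dpf were -2.53 for *Igf2* and -3.07 for *Dlk1*. *Igf2* was seen in 49.5% of control_7d and 17.2% of RA_7d members, and *Dlk1* in 46.8% and 20.9%. In other stromal cells the differences were smaller, with *Igf2* at 107 CPM in control_7d and 44.2 in RA_7d and *Dlk1* at 178 and 125.

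A list of 21 imprinted genes was drawn up after these values were seen, so its counts support nothing further. Of its 18 genes compared over time in control 11 were higher and 0 lower (median 1.78), and in RA 8 were higher (median 0.99). At 7 dpf 0 were higher and 5 lower in RA (*Igf2*, *Dlk1*, *Mest*, *Plagl1* and *Cdkn1c*, median -0.59), and at 4 dpf 0 of 14 were past 2-fold (median 0.05). The noncoding RNAs *H19* (204, 868, 253 and 505 CPM) and *Meg3* (503, 2357, 519 and 1313 CPM) had the same order of libraries, whereas *Ndn*, necdin, was level at 110, 112, 108 and 111 CPM. In other stromal cells the ratios over time were 2.37 in control and 1.91 in RA for *Igf2*, 4.51 and 2.38 for *Dlk1* and 1.99 and 0.98 for *Mest*, against 6.41 and 2.76, 7.85 and 1.82, and 4.36 and 2.44 in members. A single RA_4d cell held 68.1% of the 47 *Dlk1* UMIs there, and without the richest cell of each library the member ratios of *Dlk1* were 8.31 in control and 3.22 in RA.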

How the data were processed

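Callus cells of 4 libraries, 1 per group, were profiled by single-cell RNA-seq. Per the labels, the authors aligned reads to mm10 with Cell Ranger 7.0.1. The deposited tables hold UMI counts, not normalized, for 32285 genes per barcode, and were filtered here at 4000 to 50000 UMIs, 2000 to 7000 genes and at most 8% mitochondrial UMIs. Members and gene lists were chosen with earlier results of these data known. UMIs of the members were summed per library, expressed as CPM and compared as log2 ratios with a pseudocount of 1 CPM among genes with at least 100 UMIs, and a gene was called at 2-fold. With 1 library per group there was no test, and a count model was not used. Shares were given exact binomial, levels exact Poisson and ratios exact conditional 95% intervals, all for counting error only. Scrublet (scanpy 1.11.5) called 627 of the kept cells (2.46%) doublets, 0, 4, 0 and 5 of them members of control_4d, control_7d, RA_4d and RA_7d; they were kept, and leaving them out was an alternative. Thinning, Spearman's rho and the variance ranking used 8000 UMIs per cell (Python 3.11.15, numpy 2.4.6, scipy 1.17.1, pandas 2.3.3, matplotlib 3.10.9).

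Named genes were those of the rule and label; the 15 highest and 10 lowest against other stromal cells by the value nearest 0 over the libraries, at 50 CPM or more; the 12 most raised and 12 most lowered in RA at 7 dpf with the same direction at 4 dpf; the 8 most raised and 8 most lowered over time in both conditions; up to 4 genes of a described list at 20 CPM or more, with its most abundant; *Rbpj* and the Notch receptors; and the 12 most variable genes. Genes named beyond these were picked with their values in view. The 40 lists were written from general knowledge. Some single genes of these lists are not reported here. Positions came from GENCODE M21, where 83 of 83 named genes matched, and promoters from RefSeq.

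On counts simulated from the real means and totals for RA at 7 dpf (10091 genes), the 2-fold call recovered 52 of 52 genes made 4-fold higher, 47 of 47 made 3-fold higher, 39 of 41 made 3-fold lower and 40 of 40 made 4-fold lower. For members against other stromal cells, where all 4 libraries had to pass (15827 genes), it recovered 40 of 46, 33 of 45, 31 of 56 and 25 of 50. The simulated sums were Poisson draws without variation between cells, mice or libraries. The recovery therefore covers counting error only and does not measure how reliable calls between single libraries are. Alternatives covered the cell filter, the rule, doublets, depth, TMM scaling, pseudocount, count minimum and weight of cells. Leaving out the richest cell of a gene, and members with 10 or more UMIs of other cell types' markers, were chosen after seeing the data.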

Additional observations from a re-analysis of the deposited data

Results flagged for a closer look

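Several genes were past 2-fold in opposite directions in 2 comparisons of the same kind, and none of these differences was tested, since each comparison has 1 library per side. *Ndnf*, a secreted neurotrophic factor, had a log2 ratio of RA over control of -1.02 at 4 dpf and 1.19 at 7 dpf, with 49.8, 9.92, 24.0 and 23.9 CPM in control_4d, control_7d, RA_4d and RA_7d. *Lif*, a cytokine of the interleukin 6 family, had -1.30 and 1.11, with 28.7, 4.96, 11.02 and 11.8 CPM. In both genes the RA libraries were level and the control libraries differed.

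Over time, *Ccl8*, a monocyte chemokine, had a log2 ratio of 7 over 4 dpf of -1.18 in control and 1.04 in RA. *Cxcl9*, a chemokine induced by interferon gamma, had -2.67 and 1.72, with 124, 18.7, 7.87 and 28.1 CPM, but 1 control_4d cell held 86.0% of its UMIs there, and without the richest cell of each library the ratios were -0.47 and 1.97. The globin genes *Hbb-bs* (-1.33 in control and 5.61 in RA), *Hba-a1* (-1.24 and 4.72) and *Hba-a2* (-1.52 and 4.41) were lowest in RA_4d, where *Hba-a1* stood at 2.75 CPM against 179, 75.2 and 98.1 in control_4d, control_7d and RA_7d. Without the richest cell of each library the ratios in control changed sign, to 1.06 for *Hbb-bs*, 1.49 for *Hba-a1* and 1.09 for *Hba-a2*.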

How the results depend on the processing

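Members as a share of stromal cells in control_4d, control_7d, RA_4d and RA_7d were 8.14%, 9.36%, 9.52% and 14.3% under the looser cell filter and 19.1%, 14.1%, 22.6% and 19.5% among cells of 10000 to 30000 UMIs. At 7 dpf they were 6.39% and 11.5% in control and RA with a threshold of 10, 9.78% and 14.4% with 3 per 10000 UMIs, and 9.21% and 14.6% without *Cxcl14* in the sum, and the ratio of RA to control was 1.81 with the threshold of 10. With a pseudocount of 10 CPM the numbers of genes past 2-fold were 36 against other stromal cells (191 as reported), 88 for RA at 7 dpf (246), 35 for RA at 4 dpf (67), 212 over time in control (374) and 95 in RA (220). With at least 500 UMIs there were 86, 9, 140 and 82 in the last 4 comparisons, and with at least 50 there were 129 at 4 dpf and 373 over time in RA. The looser filter gave 291 against other stromal cells, and the depth range gave 38 at 4 dpf. Lists of 5 or more genes with a median log2 ratio past 0.5 for RA at 7 dpf numbered 6 and came to 2 with the pseudocount of 10 CPM and 2 with at least 500 UMIs.

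Of 704 values of named genes recomputed for RA against control, 578 stayed within the counting interval of the reported ratio and 3 reversed, all of *Saa3* at 4 dpf, which was 0.99 with a threshold of 10, 0.95 per 10000 UMIs and 0.46 in the depth range; the cause was not tested. Over time 0 of 352 reversed, and against other stromal cells 0 of 275. Of the values past 2-fold as reported, 319 of 330 stayed past it for RA against control, 352 of 352 over time and 237 of 253 against other stromal cells. Those lost for RA belonged to *Csmd1*, *Lyz2* (-0.72 without doublets) and *Cxcl2* at 7 dpf and to *Tnc* and *Saa3* at 4 dpf, and those lost against other stromal cells to *Gsn*, *Col4a1*, *Col4a2*, *Col15a1*, *Dpep1*, *Itih5*, *Fbln7*, *Ltbp4*, *Apod*, *Rras2* and *C1qtnf3*, mostly among cells of 10000 to 30000 UMIs, where *Apod* came to 0.15. Without the richest cell of each library, 61 of 62 such values for RA against control and over time stayed past 2-fold, *Saa3* at 7 dpf being the exception. Ratios against other stromal cells were not recomputed in this way. The flagged genes *Cxcl9*, *Hbb-bs*, *Hba-a1* and *Hba-a2* were not among the 62, and their ratios over time in control did not stay past 2-fold in the same direction.

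The 4 dpf values rest on 105 and 99 members, and 6293 genes reached the count minimum there against 10135 at 7 dpf. No paired analysis was possible because each group has 1 library. Library and condition cannot be told apart. The rule reads raw UMIs, so deeper cells meet its minimum more easily and its upper limits less easily.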

Other observations

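Some pericyte and smooth muscle genes were higher in members at 7 than at 4 dpf. *Rgs5*, a pericyte regulator of G-protein signalling, stood at 1.13, 26.1, 1.97 and 22.9 CPM in control_4d, control_7d, RA_4d and RA_7d. *Abcc9*, a potassium channel subunit, stood at 4.15, 7.44, 9.05 and 31.4 CPM and *Myh11*, smooth muscle myosin, at 0.377, 2.98, 1.18 and 21.5, but neither reached the count minimum in control. Of the list, 2 of 3 genes compared over time in control and 4 of 6 in RA were at least 2-fold higher, against 2.41% and 1.58% of all genes. The list medians were 1.29 and 1.97 in members and 0.57 and 1.81 in other stromal cells, and all 8 together stood at 42.2, 99.8, 37.4 and 123 CPM. The rule set no limit on markers of pericytes or smooth muscle. Members rich in these markers were not among those left out for markers of another cell type. Whether a few such cells carried these values was not tested.

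Genes of the glucocorticoid response had a median log2 ratio of RA over control of 0.45 at 7 dpf, with 2 of 12 higher by 2-fold or more against 1.55% of all genes, and the median in other stromal cells was 0.54. *Zbtb16*, a transcription factor induced by glucocorticoids, stood at 29.8, 7.93, 76.3 and 24.9 CPM and was past 2-fold at 4 dpf as well (1.33). *Hsd11b1*, which regenerates active glucocorticoid, stood at 31.7, 9.92, 39.0 and 24.4 CPM. *Fkbp5*, which was lower at 7 than at 4 dpf in both conditions, stood at 59.2, 27.6, 92.9 and 43.5 CPM.

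Some further cell state lists had member medians nearer 0 than that of the glucocorticoid list. At 7 dpf, oxidative phosphorylation genes had a median of -0.24 in members (0 of 23 past 2-fold) and -0.33 in other stromal cells, glycolysis and hypoxia genes -0.23 (0 of 18) and -0.61, and MHC class I genes 0.36 (0 of 13) and 0.30. *Mmp13* stood at 7.54, 16.7, 1.18 and 71.1 CPM, so RA_4d was the lowest and RA_7d the highest library.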
